A study of Mus musculus with 11 samples.

Results

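The cytosolic ribosome of mouse hematopoietic stem cells (HSC) was described through the genes that encode its proteins. Members were the protein-coding genes of the count table whose symbol begins with Rpl or Rps and a digit, together with Rplp0, Rplp1, Rplp2 and Rpsa. The Rps6k kinases and symbols marked as pseudogenes (-ps) were left out. The rule found 85 of the 37991 genes: 42 proteins of the large subunit, 31 of the small subunit, 3 of the stalk, 8 paralogs and Rps19bp1, which is no ribosomal protein. The first 76 are called standard members below. They lay on 19 chromosomes, 4 of them (Rpl10, Rpl36a, Rpl39 and Rps4x) on the X chromosome.

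RNA-Seq libraries had been made from aliquots of 1000 bone marrow HSC, sorted as Lin-CD48-c-Kit+Sca1+CD135-CD150+ from C57BL/6 mice of 8 weeks. There were 4 control, 4 NA10hd and 3 NV libraries. NA10hd mice carried a NUP98-HOXA10HD fusion at the ROSA26 locus behind a loxP-stop-loxP (LSL) cassette and Vav-Cre, and NV mice carried LSL NrasG12D/+ and Vav-Cre. Vav-Cre is active in blood-forming cells and acts from before birth, so both changes were present in HSC and in the blood cells around them. Control mice for sequencing are called wild type in the labels and in the study's text, and littermates in its methods. Controls in some of its other experiments carried the NA10hd LSL/+ allele without Cre. The study's heat map captions call the libraries biological replicates, but which animals gave each aliquot is not stated. The p-values therefore measure the spread between these libraries, which may be technical.

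The ribosome is the machine that reads messenger RNA into protein. The small subunit decodes the message, the large subunit joins the amino acids, and the stalk of Rplp0, Rplp1 and Rplp2 recruits the elongation factors. Cells make the proteins in matched amounts, and their messages share a pyrimidine tract at the 5′ end through which mTOR signalling sets how fast they are translated. HSC are known for a low rate of protein synthesis, and loss of 1 copy of some of these genes, such as Rps19 or Rps14, is a known cause of failing red cell production in humans.

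Total counts per library ran from 5464815 to 14283008, and genes with at least 1 count from 13859 (NA10hd replicate 4) to 15900. All 11 HSC markers examined had counts, and their summed level was 2569 to 3293 CPM (counts relative to the TMM-scaled library total) in control libraries. NA10hd libraries had 2950 to 3675 CPM and NV libraries 2161 to 2630 CPM of the same markers. Markers of other cells summed to less, at most 86.9 CPM for 11 erythroid, 108 for 13 lymphoid, 25.8 for 7 stromal, 306 for 6 endothelial, 670 for 8 megakaryocyte and 1074 for 13 myeloid genes. Xist, transcribed from the inactive X chromosome, and 4 Y-linked genes showed that control replicates 2 and 3 and all 3 NV libraries held RNA of both sexes, and hence of more than 1 animal. NA10hd replicate 4 had 216 Xist and 0 Y-linked counts, and the other 5 libraries had Y-linked counts and 0 Xist counts. In bulk RNA, fewer cells of a type and less RNA per cell cannot be told apart.

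The members took a large part of each library, and that part differed between groups. They held 14.6% ± 0.779 (SD, n = 4) of all counts in control, 17.6% ± 1.79 (n = 4) in NA10hd and 13.0% ± 0.419 (n = 3) in NV libraries. Control replicates 1 to 4 gave 14.5%, 13.6%, 15.6% and 14.6%. NA10hd replicates 1 to 4 gave 18.2%, 15.3%, 17.5% and 19.5%, so that all but replicate 2 lay above every control. NV replicates 1 to 3 gave 13.4%, 13.0% and 12.6%, below every control library. Between 50 and 61 of the 100 genes with the most counts in a library were members.

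**Figure D1:**
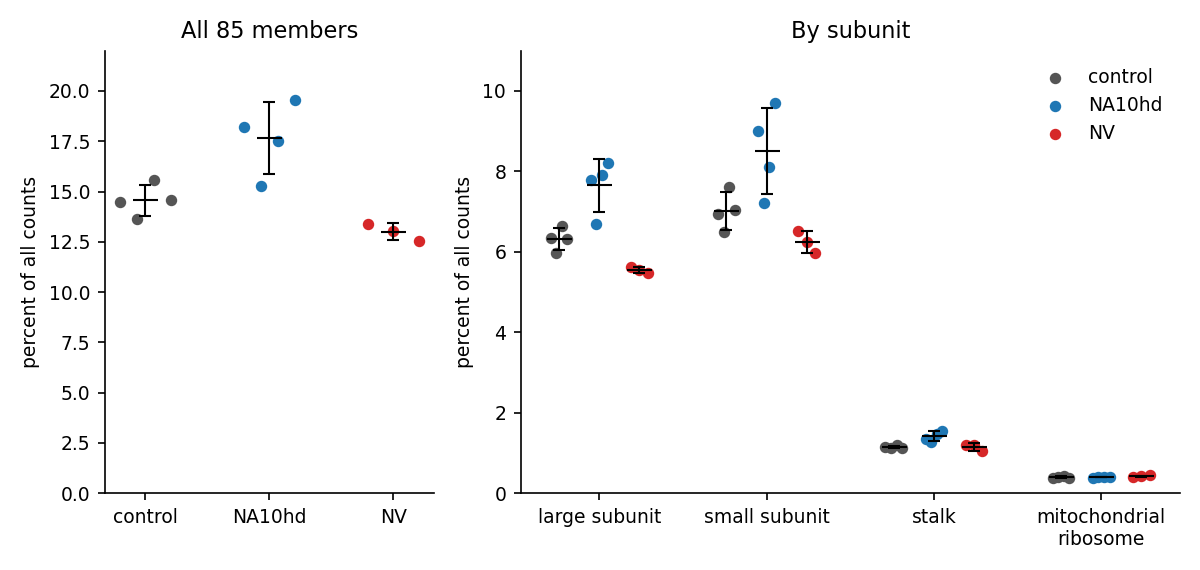
Percent of all counts in each library on the 85 members (left) and on the large subunit, small subunit, stalk and mitochondrial ribosomal protein genes (right); points are libraries, lines the mean and bars 1 SD of 4 control, 4 NA10hd and 3 NV libraries. The NV libraries lie at 12.6% to 13.4% and the NA10hd libraries at 15.3% to 19.5%, while the mitochondrial ribosome stays near 0.4% in every group.

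The balance between the subunits overlapped between groups. Counts on small-subunit genes divided by counts on large-subunit and stalk genes gave 0.940 ± 0.0256 (SD, n = 4) in control, 0.937 ± 0.0622 (n = 4) in NA10hd and 0.933 ± 0.0194 (n = 3) in NV, with overlapping ranges. The 77 mitochondrial ribosomal protein genes, which build the separate ribosome of mitochondria, held 0.399% ± 0.0248 (n = 4), 0.402% ± 0.00949 (n = 4) and 0.422% ± 0.0167 (n = 3).

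Levels of single members, compared per kilobase of exon in control HSC, ranged over the standard members from 143 to 8231 CPM per kb. Rplp1 of the stalk was highest at 8231 ± 713 (SD, n = 4), followed by Rps4x at 4445 ± 226 and Rps3a at 4346 ± 562, and these last members of the small subunit did not differ beyond their spread. Rplp0, the base of the stalk, stood at 3746 ± 303 and Rpl8, near the peptidyl transferase centre, at 3668 ± 118, again within their spread. At the low end were paralogs and Rps19bp1. Rpl10l, a testis paralog of Rpl10, had 0 counts in all 11 libraries, and Rpl3l, the striated muscle paralog of Rpl3, had 1 count in 1 control library. Rpl39l had 0 to 37 counts per library, and the log2 fold change of NV relative to control, at -1.47 the lowest of all members, was not called. Rps19bp1 lay at 32.5 ± 8.24 CPM per kb, and Rps4y2, which despite its symbol is on chromosome 6, at 28.4 ± 2.87.

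The first comparison asked how NA10hd HSC differ from control HSC. A gene was called where its fold exceeded 1.5 and its Benjamini-Hochberg adjusted p from the edgeR quasi-likelihood test lay under 0.05. By this rule 0 of 82 tested members were called (smallest edgeR adjusted p 0.145), and of all 13060 tested genes 1 was called, 0.00766%. All 76 standard members nevertheless had positive log2 fold changes, with a median of 0.40 and a range of 0.07 to 0.86, while the median over all tested genes was 0.02. An unadjusted p under 0.05 was reached by 44 of the 82 members, and by 6.62% of all genes in the upward direction. In 16 members every NA10hd library lay above every control library, against 3.89% of all genes, and in 0 members below, against 3.94%. DESeq2 called 4 members higher (Rpl12, Rpl13, Rpl13a and Rpl36) and 0.689% of all genes higher; Rpl12 and Rpl13a are named here after their values were seen.

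Rpl36, a small protein of the large subunit, had the highest estimate. Its levels were 487, 318, 480 and 539 CPM in control replicates 1 to 4 and 795, 487, 993 and 1026 CPM in NA10hd replicates 1 to 4. NA10hd replicate 2 lay among the controls and the other 3 above them. The log2 fold change was 0.86 ± 0.23 (SE), with an adjusted p of 0.215 (edgeR quasi-likelihood test). Rpl13, also of the large subunit, had 2006, 1636, 2086 and 2226 CPM in control against 2727, 2553, 4024 and 3420 CPM in NA10hd, without overlap. Its log2 fold change was 0.68 ± 0.16 (SE), with an adjusted p of 0.201 by the same edgeR test.

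The stalk followed the subunits, with log2 fold changes of 0.69 for Rplp2, 0.47 for Rplp1 and 0.23 for Rplp0, and 0 of the 3 called. Rpl5 and Rpl11, which can bind Mdm2 when they are free of the ribosome, had estimates of 0.18 and 0.57. Rps6, the substrate of the S6 kinases, stood at 0.23, Rps19 at 0.42, Rps14 at 0.37 and Rps27a, made as a fusion with ubiquitin, at 0.28. None of these 6 was called. The lowest estimates belonged to paralogs: Rpl22l1 at -0.25, Rps27l at -0.09 and Rpl36al at -0.03.

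NA10hd libraries differed among themselves more than the other groups did. Relative to the control mean, the mean log2 level of the standard members was 0.53, -0.04, 0.32 and 0.69 in NA10hd replicates 1 to 4, against -0.11 to 0.16 in control and -0.34 to -0.21 in NV. Replicates 1 and 4 also had the fewest genes detected, 14430 and 13859, against 15361 and 15455 in replicates 2 and 3. Mitochondrially encoded genes took 5.28% and 4.95% of their counts, against 3.42% and 3.75% in replicates 2 and 3. Named ribosomal protein pseudogenes took 0.378% and 0.393%, against 0.685% and 0.798%. Controls had 15485 to 15899 genes detected, 3.65% to 4.59% on mitochondrial genes and 0.556% to 0.632% on pseudogenes. Replicates 1, 2 and 4 lay outside the control range on all 3 measures, and replicate 3 on genes detected and pseudogenes. Replicate 2 lay on the other side of the controls from replicates 1 and 4 for mitochondrial genes and pseudogenes. The part of these differences in the result was not tested. Without replicate 4 the median over the members was 0.27, and without replicate 2 it was 0.50. Among libraries with Y-linked and no Xist counts alone (NA10hd replicates 1 to 3, control replicates 1 and 4) the median was 0.31.

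**Figure D2:**
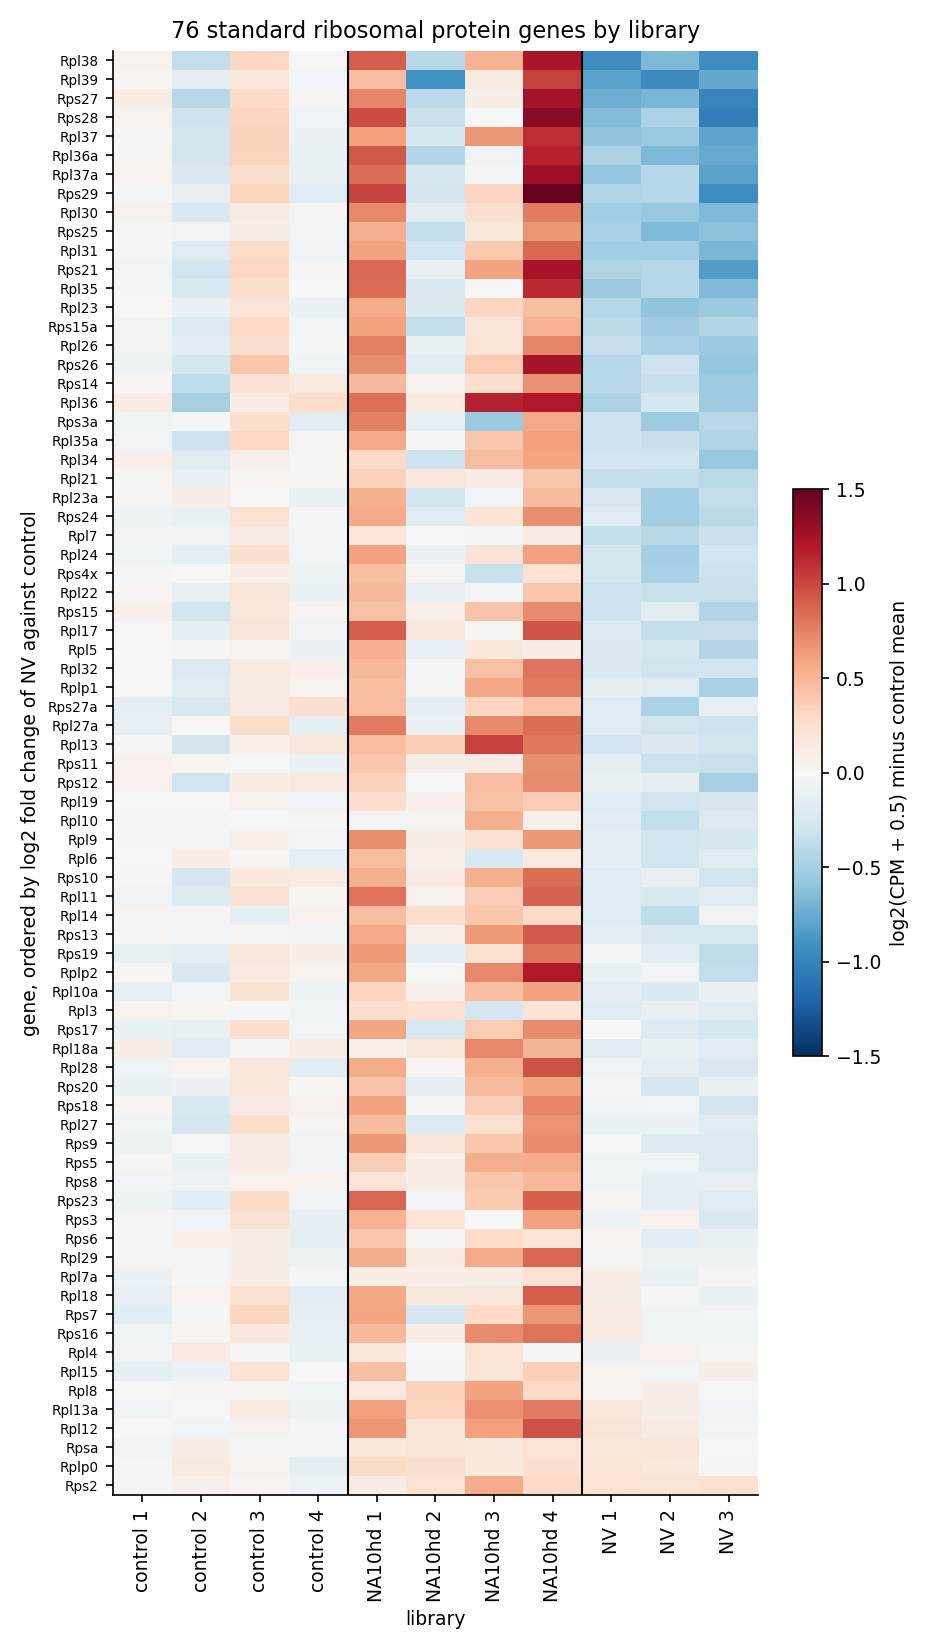
Heat map of the 76 standard members (rows, ordered by the log2 fold change of NV against control) in the 11 libraries (columns); color is log2(CPM + 0.5) minus the control mean, from -1.5 (blue) to 1.5 (red). NA10hd replicates 1 and 4 are red over most rows, NA10hd replicate 2 is near the controls, and the 3 NV libraries are blue over the upper rows and near 0 in the lowest.

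NV HSC differed from control HSC in the other direction. Of 83 members tested, 12 were called lower and 0 higher by the edgeR quasi-likelihood test, against 2.21% of all 13462 tested genes called lower and 2.55% called higher. At any fold, 22 members were lower with an adjusted p under 0.05, against 2.57% of all genes, and 0 were higher. The median log2 fold change was -0.27 over the members and -0.01 over all genes, and 74 of the 83 estimates were negative. In 38 members every NV library lay below every control library, against 9.37% of all genes, and in 1 (Rps2) above, against 9.49%. The called members were 7 of the large subunit (Rpl38, Rpl39, Rpl37, Rpl36a, Rpl37a, Rpl31 and Rpl30), 4 of the small subunit (Rps27, Rps28, Rps29 and Rps25) and the paralog Rpl22l1.

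Rpl38, known for a role in the translation of Hox messages in the mouse embryo, was among the lowest. It had 263, 196, 314 and 252 CPM in control replicates 1 to 4 and 132, 158 and 131 CPM in NV replicates 1 to 3, without overlap. It fell by 0.87 on the log2 scale, 1.83-fold lower, with an SE of 0.16 and an adjusted p of 0.00749 (edgeR quasi-likelihood test).

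Rpl39, which lines the exit tunnel of the large subunit, had 293, 260, 324 and 279 CPM in control and 164, 149 and 170 CPM in NV. Again no NV library reached a control. Its log2 fold change was -0.85 ± 0.12 (SE), 1.80-fold lower, with an edgeR adjusted p of 0.00188. Rps27, a zinc-binding protein of the small subunit, had 846, 590, 961 and 797 CPM in control and 472, 488 and 394 CPM in NV. Its log2 fold change was -0.83 ± 0.15 (SE), with an edgeR adjusted p of 0.00832. Of the 50-base words of the longest coding transcript of Rps27, 99.7% also occur elsewhere in the genome. How its reads were shared with copies is thus uncertain. The same limit holds for Rpl36 (93.5%), Rpl36a (92.6%), Rpl13 (86.5%), Rps2 (71.4%), Rpl38 (57.6%) and Rpl39 (44.0%).

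The other called standard members had log2 fold changes of -0.72 (Rps28), -0.67 (Rpl37), -0.65 (Rpl36a), -0.61 (Rpl37a), -0.61 (Rps29) and -0.59 (Rpl30, Rpl31 and Rps25). Rps25 is known for its part in translation that starts at internal sites. Among members past the adjusted threshold with a smaller fold were Rps21 at -0.58, Rpl26 at -0.47, Rps3a at -0.43, Rps4x at -0.36 and Rpl5 at -0.31. Estimates were highest for Rps2, with 1367, 1480, 1432 and 1321 CPM in control and 1629, 1600 and 1640 CPM in NV. All 3 NV libraries lay above the controls, and the log2 fold change of 0.21 ± 0.08 (SE) had an edgeR adjusted p of 0.156. Next came Rplp0 at 0.13 and Rpsa, the laminin receptor precursor of the small subunit, at 0.12, neither called. Rpl11, Rps19, Rps14, Rps6, Rps27a, Rplp1 and Rplp2, at -0.45 to -0.08, were not called.

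The number of members called in NV depended on single libraries. It was 2 of 83 (Rpl22l1 and Rpl39) without NV replicate 3, where 1.87% of all genes were called in either direction. It was 5 without control replicate 3 (4.49% of all genes), 7 without control replicate 1 (3.22%), 7 without NV replicate 2 (1.93%) and 0 with all 3 groups in one fit, where 0.514% of all genes were called lower. DESeq2 called the same 12 members and 3.77% of all genes lower. In the libraries with RNA of both sexes (control replicates 2 and 3, all NV) 4 were called lower: Rpl22l1, Rpl39, Rps25 and Rpl23, the last named after its value was seen. Of all genes 2.18% were called in either direction there, and the members' median was -0.26.

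**Figure D3:**
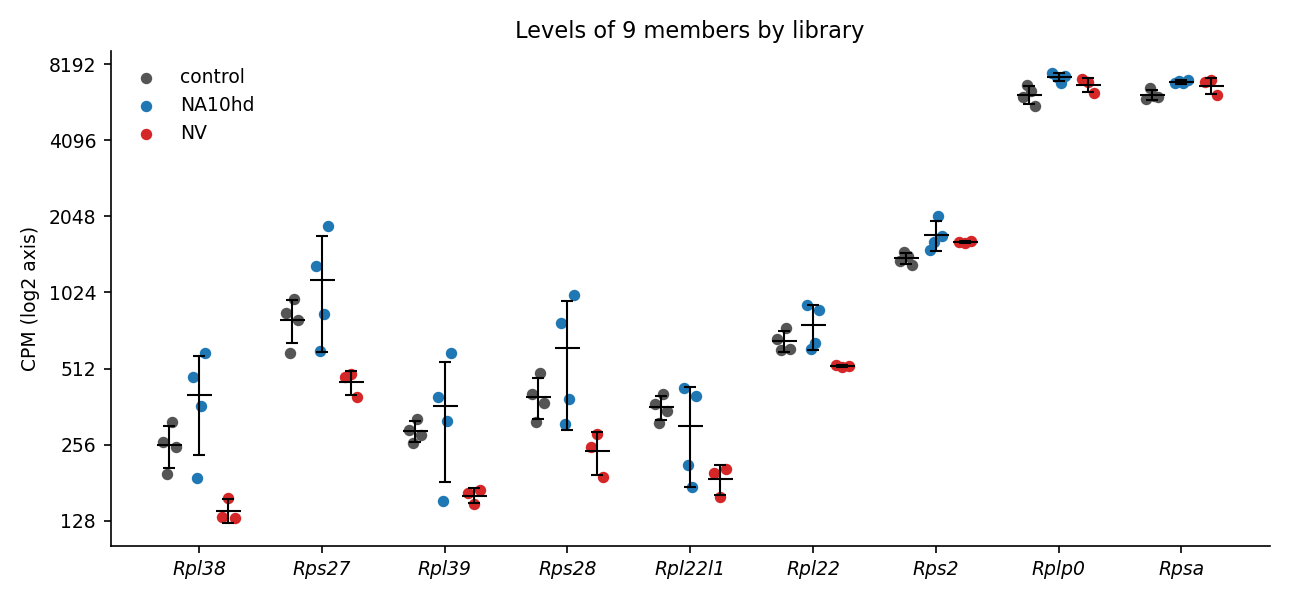
CPM of 9 members in each library on a log2 axis; points are libraries, lines the mean and bars 1 SD of 4 control, 4 NA10hd and 3 NV libraries. For Rpl38, Rps27, Rpl39, Rps28 and Rpl22l1 all NV points lie below all control points, while the Rps2 points of both NA10hd and NV lie above the controls, with no call, and Rplp0 and Rpsa overlap between NV and control.

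The direct comparison of NA10hd with NV gave the largest differences. Of 82 members tested, 25 were called higher in NA10hd and 0 lower, against 2.3% of all 13461 genes called higher and 2.79% called lower. At any fold 27 were higher, against 2.32% of all genes. All 82 estimates were positive, with a median of 0.63 against 0.01 over all genes. In 52 members every NA10hd library lay above every NV library, against 9.63% of all genes. The called members were 14 of the large subunit, 10 of the small subunit and Rplp1.

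Rpl38 had the highest estimate, with 474, 189, 363 and 588 CPM in NA10hd replicates 1 to 4 against 132, 158 and 131 CPM in NV. Even NA10hd replicate 2, the lowest, was above the 3 NV libraries. The log2 fold change was 1.51 ± 0.31 (SE), 2.85-fold higher, with an edgeR adjusted p of 0.0193. Rps29 followed at 1.39 ± 0.35 (edgeR adjusted p 0.0466), Rps27 at 1.34 ± 0.32 (0.0357), Rpl36 at 1.29 ± 0.24 (0.0114), Rps21 at 1.27 ± 0.26 (0.0208) and Rpl37 at 1.25 ± 0.26 (0.0207). Rps28 had an estimate of 1.35 ± 0.36 and was not called, with an edgeR adjusted p of 0.0535.

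Further called members were Rps26 at 1.05, Rpl31 at 1.02, Rpl30 at 1.01, Rpl13 at 0.94, Rpl26 at 0.89 and Rps25 at 0.88. Rps14 stood at 0.81, Rpl11 at 0.76 and Rplp1 at 0.73, all 3 called. The lowest estimates were those of Rpsa at 0.04, Rpl4 at 0.07 and Rps2 at 0.08. Without any single NV library 0 members were called, and the calls over all genes fell to between 1.04% and 1.65% of those tested. Without 1 NA10hd library 14 (replicate 1) to 53 (replicate 2) were called, all higher, while 4.03% to 5.80% of all genes were called in either direction. All NV libraries held both sexes and no NA10hd library did, so sex makeup and genotype cannot be told apart here.

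The size of a member's estimate varied with its coding length in all 3 comparisons, also in NA10hd against control, where 0 members were called. Coding lengths of the standard members ran from 156 bases (Rpl39) to 1260 (Rpl4). The 23 with coding lengths under 400 bases had median log2 fold changes of 0.53 (NA10hd against control), -0.58 (NV against control) and 1.05 (NA10hd against NV). The 53 longer ones had 0.36, -0.19 and 0.55. All 11 standard members called in NV were in the short set, as were 12 of the 25 called in NA10hd against NV. Of the other protein-coding genes with coding lengths under 400 bases, 33 of 843 were called lower in NV and 32 of 841 higher in NA10hd against NV. Across the 76 genes, Spearman's rho of log2 fold change with coding length was -0.58, 0.67 and -0.81, a description only, since the genes share the same libraries. With transcript length in place of coding length it was -0.52, 0.41 and -0.59.

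Other short genes had medians of the same sign, smaller by coding length. Protein-coding genes outside the members with coding lengths under 400 bases had medians of 0.15 (814 genes), -0.09 (843) and 0.23 (841) in the same 3 comparisons. Those of 400 to 599 bases had 0.09, -0.04 and 0.13, where the 31 standard members of that length had 0.44, -0.22 and 0.63. By transcript length the gap in NV was narrow: under 600 bases, 271 other genes had a median of -0.34 in NV against control and the 18 standard members -0.42. In that length class the medians of other genes and members were 0.06 and 0.55 in NA10hd against control and 0.34 and 0.95 in NA10hd against NV. The 30 other genes of that class with a mean of at least 100 CPM, which every standard member reached in each group, had medians of 0.27, -0.27 and 0.45 in the 3 comparisons. The libraries came from amplified cDNA that was cut and tagged by the Nextera XT kit, and its part in the length relation was not tested. Words of 50 bases were taken from each member's longest coding transcript, which for Rpl24 had 4999 bases against a transcript length of 677. The share of these words found elsewhere in the genome had a median of 52.3% over the standard members. Its Spearman's rho with log2 fold change was -0.01 and -0.03 in the first 2 comparisons. A share from the longest transcript can differ from that of the transcript of middle length.

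**Figure D4:**
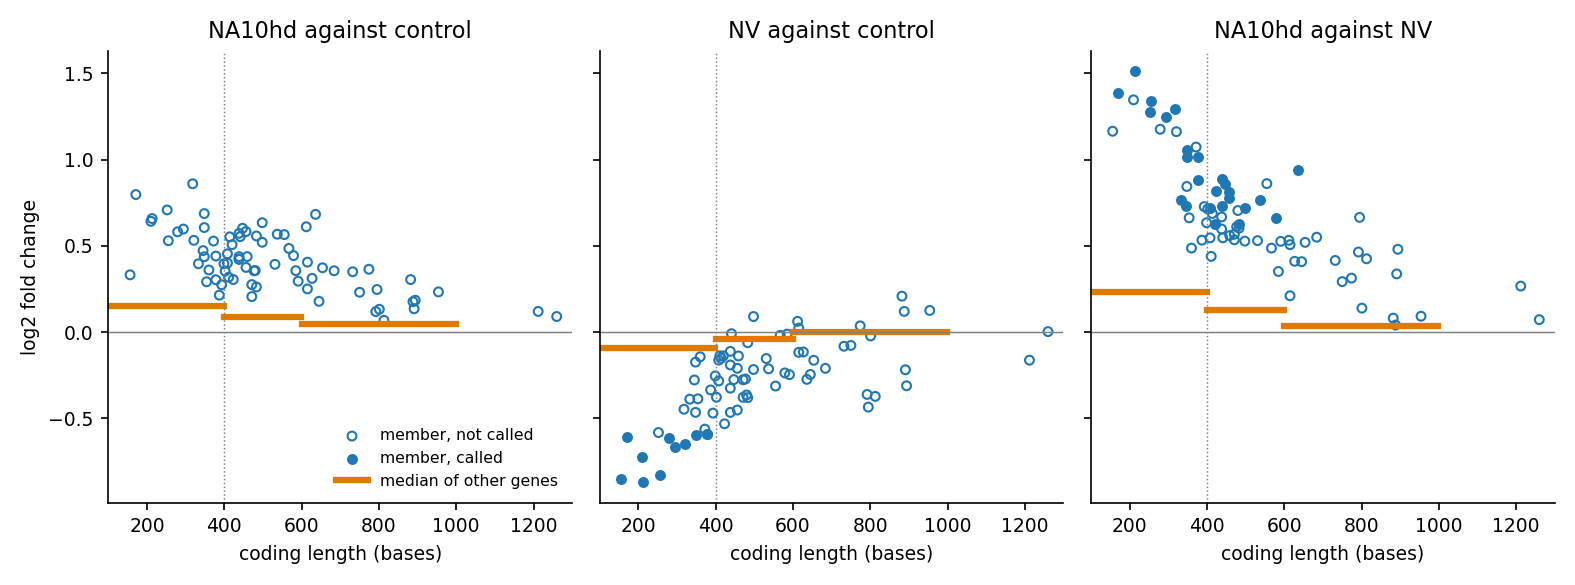
Log2 fold change against coding length in bases for the 76 standard members in the 3 comparisons; filled points were called, open points were not, and orange bars are medians of all other tested protein-coding genes of that length. Short members lie farthest from 0, at medians of 0.53, -0.58 and 1.05 below the dotted line at 400 bases, and the other genes lie nearer 0.

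Coding sequences of the annotation of NCBIM37 are shown for Rpl39 and Rpl38, whose coding lengths from start to stop codon are 156 and 213 bases. Their transcript lengths are 612 and 371 bases.
Rpl39: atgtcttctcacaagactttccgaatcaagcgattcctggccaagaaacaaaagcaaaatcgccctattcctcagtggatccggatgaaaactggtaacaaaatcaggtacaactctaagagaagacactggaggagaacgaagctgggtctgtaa
Rpl38: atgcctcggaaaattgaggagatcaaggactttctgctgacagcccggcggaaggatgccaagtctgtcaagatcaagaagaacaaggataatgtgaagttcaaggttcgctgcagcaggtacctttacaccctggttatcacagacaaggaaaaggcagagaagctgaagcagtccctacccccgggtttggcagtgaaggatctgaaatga

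Start sites were read because most members' estimates had the same sign within a comparison. RefSeq promoters (build GRCm38.p6, a later build than that of the counts) were matched by symbol for 63 of the 85 members. The 30 bases from 15 before to 15 after the annotated start are shown for 4 members with low NV estimates and 2 with high ones, with runs of 5 or more pyrimidines (C or T) in capitals.
Rpl38: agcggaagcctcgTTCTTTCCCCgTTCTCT
Rps27: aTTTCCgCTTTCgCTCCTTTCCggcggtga
Rpl22l1: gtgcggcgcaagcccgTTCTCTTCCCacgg
Rps28: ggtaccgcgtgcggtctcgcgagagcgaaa
Rps2: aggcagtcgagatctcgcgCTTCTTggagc
Rpsa: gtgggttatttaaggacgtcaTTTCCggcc

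These windows lie at chr11:114668565-114668594 (Rpl38, plus strand), chr3:90213634-90213663 (Rps27, minus), chr3:28805493-28805522 (Rpl22l1, plus), chr17:33824548-33824577 (Rps28, minus), chr17:24720048-24720077 (Rps2, plus) and chr9:120127751-120127780 (Rpsa, plus). A run of 5 or more pyrimidines on the transcript strand was found in 69.2% of 65 start windows of 55 standard members, against 47.3% of 32851 windows of all genes. It was present in 7 of 9 windows of standard members called lower in NV and in 38 of 56 windows of 46 others, a description of few sequences. In the 300 bases from 250 before to 50 after the start, searched on both strands, CTTTCC was found in 49.2% of the standard members' promoters and 26.6% of all, and CCGGAA, the core bound by Ets factors, in 47.7% and 14.9%. GGGCGG was found in 60.0% and 35.7%, and TATAAA in 9.23% and 13.6%. The letters can overlap one another, and a match is not a site shown to be bound.

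Paralogs were compared with their parents as shares of the 2 genes' counts, which do not depend on how libraries are scaled. Rpl22 is a large-subunit protein known for its loss in T cell leukemia, and Rpl22l1 is its paralog. Rpl22l1 made up 35.7%, 34.1%, 35.3% and 36.2% of the pair in control replicates 1 to 4. In NA10hd the shares were 31.8%, 25.8%, 21.1% and 31.3%, and in NV they were 27.2%, 23.4% and 28.1%. Every NA10hd and every NV library lay below every control. Of the 50-base words of Rpl22l1 65.5% occur elsewhere in the genome and of those of Rpl22 5.89%. Transcript lengths are 489 bases for Rpl22l1 and 2051 for Rpl22. The part of copies and of length in these shares was not tested.

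The log2 ratio of Rpl22l1 to Rpl22 differed from control by -0.54 ± 0.19 (SE) in NA10hd, with an exact permutation p of 0.0286 (two-sided, 4 against 4), the smallest the design allows. In NV it differed by -0.62 ± 0.11 with an exact p of 0.0571, the smallest that 4 against 3 allows. Adjusted over the 12 ratios tested, both exact p-values became 0.0857. In the fit over all genes, Rpl22l1 fell by 0.95 on the log2 scale in NV (SE 0.13, edgeR adjusted p 0.00188), from 312 to 406 CPM in control to 159 to 204 CPM. It was called in all 7 fits that left out 1 library. Rpl22 had a log2 fold change of -0.34 ± 0.10 (SE) in NV, with an edgeR adjusted p of 0.0780, and 0.21 ± 0.16 in NA10hd.

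Both coding sequences align over 369 bases, with 259 identical (70.2%) and no identical run beyond 26 bases. A stretch of 120 aligned bases without gaps is shown with the 40 that differ in capitals, from base 37 of Rpl22 and base 22 of Rpl22l1 counted from the start codon.
Rpl22: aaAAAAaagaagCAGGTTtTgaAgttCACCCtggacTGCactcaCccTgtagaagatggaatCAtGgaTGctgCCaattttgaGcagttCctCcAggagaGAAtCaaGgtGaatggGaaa
Rpl22l1: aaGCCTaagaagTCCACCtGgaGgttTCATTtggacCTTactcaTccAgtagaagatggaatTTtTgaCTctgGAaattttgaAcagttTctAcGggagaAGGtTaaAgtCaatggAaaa

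Rps27l, the p53-responsive paralog of Rps27, made up 11.5% ± 1.26 (SD, n = 4) of its pair in control, 8.27% ± 1.70 (n = 4) in NA10hd and 16.8% ± 1.81 (n = 3) in NV. Its own level overlapped between groups, with control libraries at 83.5 to 139 CPM, NA10hd libraries at 56.2 to 121 CPM and NV libraries at 85.9 to 96.1 CPM. The log2 ratio in NV exceeded control by 0.64 ± 0.14 (SE; exact permutation p 0.0571, adjusted 0.0857). The coding sequences of Rps27 and Rps27l are equally long and 76.1% identical, while their transcript lengths are 345 and 499 bases. Rpl36al, the paralog of Rpl36a, made up 16.7%, 12.6% and 20.6% of its pair in control, NA10hd and NV, and its NV libraries overlapped the controls. Rpl7l1 made up 2.62%, 2.75% and 3.32% of its pair with Rpl7, and its 3 NV libraries lay above the controls (exact permutation p 0.0571, adjusted 0.0857).

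**Figure D5:**
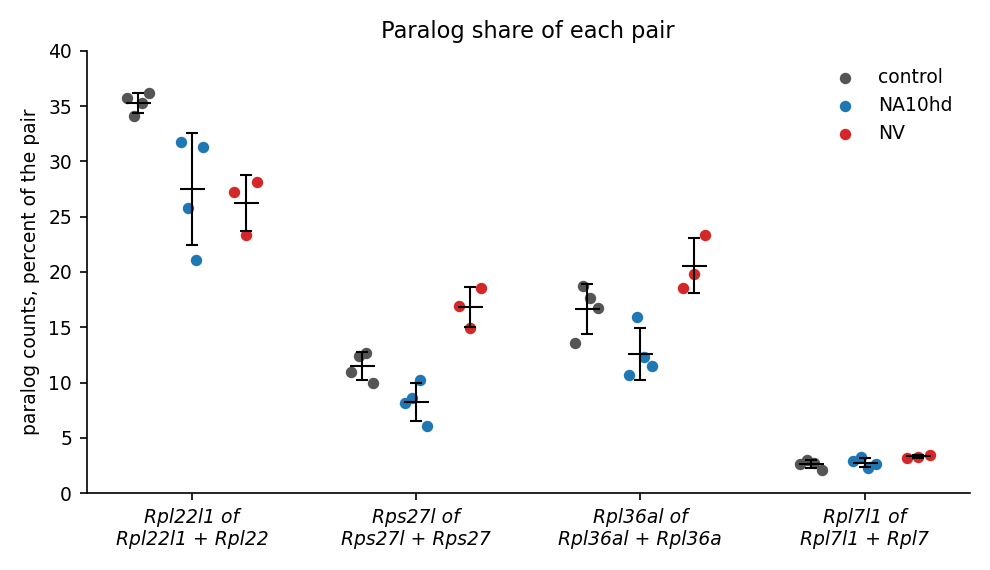
Counts of 4 paralogs as a percent of the counts of paralog plus parent gene in each library; points are libraries, lines the mean and bars 1 SD of 4 control, 4 NA10hd and 3 NV libraries. The mean for Rpl22l1 is 35.3% in control, 27.5% in NA10hd and 26.2% in NV, and that for Rps27l is 11.5%, 8.27% and 16.8%.

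Genes that work with the ribosome were taken from lists, and their calls stand beside 0.00766%, 4.76% and 5.09% of all genes called in either direction in the 3 comparisons. Fau, whose product includes the small-subunit protein Rps30 and which the symbol rule does not catch, had log2 fold changes of 0.70 (edgeR adjusted p 0.208), -0.48 (0.0136) and 1.17 (0.00946) in NA10hd against control, NV against control and NA10hd against NV. Only the last passed both thresholds. Gnb2l1 (Rack1), a scaffold protein on the small subunit, had 0.23, 0.20 and 0.01 and was not called.

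Ribosome assembly genes, which process ribosomal RNA and build the subunits in the nucleolus, had mostly negative estimates in NA10hd. Of 73, 57 were below 0 and 0 were called in NA10hd against control, with a median of -0.35, and 0 in NV against control, with a median of -0.02. In NA10hd against NV 7 were called lower and 1 (Imp3, at 0.70) higher, with a median of -0.25. Rrp1b at -1.42, Utp18 at -1.07 and Heatr1 at -0.96 were the lowest of those called, while Pop1, at -1.15, was not called. Of 14 genes of RNA polymerase I transcription 0 were called in any comparison, with medians of -0.08, 0.04 and 0.01.

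Translation factors had few calls, near the share over all genes. Of 27 elongation and other genes with a 5′ pyrimidine tract 0 were called, with medians of -0.03, -0.12 and 0.02. Of 29 initiation factors 1 was called, Eif4a3 at -0.60 in NA10hd against NV, with medians of -0.21, 0.01 and -0.18, and 20, 14 and 21 of the 29 estimates were negative. Of 76 mitochondrial ribosomal protein genes Mrpl23 was called, at -0.63 in NV against control and 1.17 in NA10hd against NV, and the medians were 0.05, 0.03 and -0.01.

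Among 27 genes that control ribosomal protein synthesis, Mxd3, a Max partner expressed in S phase, was called at 1.81 in NV against control, and Mycn at 0.66 in NA10hd against NV. Among 15 or 16 tested genes of the Mdm2 and p53 response 1 was called, Gtse1 at 1.70 in NV against control and -3.42 in NA10hd against NV. Gtse1 is known as a gene of the S and G2 phases.

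Other lists moved with the groups too. Of 14 cycling genes 11 were called higher in NV against control and 13 lower in NA10hd against NV. In NA10hd against control all 14 had negative estimates, with a median of -0.79, and 1 was called lower, the only gene called there. The summed level of the 14 was 1751 to 2310 CPM over the control libraries, 978 to 1405 CPM over NA10hd and 3508 to 3910 CPM over NV. Of 11 HSC markers 3 were called lower and 1 higher in NV against control, and 6 higher in NA10hd against NV. Erythroid markers summed to 28.6 to 36.1 CPM in control and 54.3 to 86.9 CPM in NV, without overlap, and 2 of 3 tested were called higher. Megakaryocyte markers summed to 364 to 436 CPM in control and 337 to 670 in NV, and 3 of 8 were called higher and 1 lower. Mitochondrially encoded genes took 4.11% ± 0.389 (SD, n = 4) of counts in control, 4.35% ± 0.905 (n = 4) in NA10hd and 2.92% ± 0.319 (n = 3) in NV. Of 17 of these genes tested, all were negative in NV against control, with 8 called lower (11 at any fold) and a median of -0.68. Their median was 0.40 in NA10hd against control, with 0 called, and 1.02 in NA10hd against NV, with 3 called higher. The part of these in the members' differences was not tested.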

How the data were processed

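Raw counts of 11 libraries were deposited by the authors, without normalization. The submitters' processing notes name HISAT2, featureCounts and the genome build NCBIM37, and the table holds whole reads per Ensembl gene. Versions, strand setting, read length and handling of multi-mapping reads are not given in the sources used here. The table had 3 unnamed empty columns, which were not used. Symbols, coordinates and lengths came from GENCODE vM1 on NCBIM37, which held 37205 of the 37991 IDs.

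Each comparison was fitted on its own libraries with edgeR 4.0.16 (R 4.3.3; TMM, default filter on low counts, quasi-likelihood test, Benjamini-Hochberg over all tested genes), and the script was tested on simulated data. A call needed an adjusted p under 0.05 and a fold above 1.5. Levels were CPM over the total times the TMM factor. Transcript length was the middle value over coding transcripts, likewise coding length. Paralog ratios were tested by exact two-sided permutation where both genes had at least 10 counts in every library. Members not tested were Rpl10l and Rpl3l, and Rpl39l except in NV against control, all removed by the filter. NA10hd against control and NV against control share their control libraries.

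Named were members called (12 largest per comparison), the 3 highest and 3 lowest estimates, the 5 highest and lowest levels per kb, paralogs, and members of known role. Members and lists were chosen with earlier results of these data known. Alternatives were DESeq2 1.42.0, other scalings, no filter, a replicate block, a joint fit of all groups, pseudogene rows (152 named -ps) summed into members, and each library left out. The split at a coding length of 400 bases and the libraries of one sex makeup (at least 10 Xist or Y-linked counts) were chosen after seeing the data. Reads carry no molecular identifiers, so depth bounds counting error only. Figures used matplotlib 3.10.9.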

Additional observations from a re-analysis of the deposited data

Results flagged for a closer look

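Of 86 sets of 4 libraries examined, 2 had a library far from the other 3 by Dixon's criterion (a gap over range of 1 in both), where chance flags about 1 in 20 such sets. Rpl3l had 1 count in 1 control library and 0 in the other 3. Rpl39l had 37 counts in NA10hd replicate 3 and 0 in the other 3 NA10hd libraries. Groups of 3 were not examined.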

How the results depend on the processing

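Across 156 alternative values of the main results, 42 moved and 114 did not; the cause was not tested except where fewer libraries or members enter by construction. The share of all genes called in either direction in the same fit follows each count of members. For NA10hd against control, DESeq2 called 4 members (7 at any fold; 1.23% of all genes) and one fit of all 3 groups 1 (1 at any fold; 0.278%), and leaving out each library gave 0 to 0. For NV against control the 12 calls (4.76%) became 7 with library totals in place of TMM (4.75%), 0 with all 3 groups in one fit (0 at any fold; 1.11%), 4 in the libraries of one sex makeup (7 at any fold; 2.18%) and 2 to 15 (5 to 29 at any fold; 1.87% to 4.82%) with each library left out. For NA10hd against NV the 25 calls (5.09%) became 42 with DESeq2 (56 at any fold; 9.71%), 41 with all 3 groups in one fit (54 at any fold; 8.22%) and 0 to 53 (0 to 54 at any fold; 1.04% to 5.80%) with each library left out. Standard members of 400 bases or more alone gave 0 calls in NV against control and 13 in NA10hd against NV, and shorter ones 12 in the latter. The median over the members ranged over left-out libraries from 0.27 to 0.50, -0.29 to -0.24 and 0.53 to 0.75. The members' mean share was 15.7% in control and 13.8% in NV of counts on nuclear protein-coding genes, and 13.5% in NV with named pseudogenes.

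Same-numbered libraries did not deviate together (correlations -0.073 to 0.036), so the numbers do not pair the samples. With the replicate number as a block, 6 members (10 at any fold; 3.21% of all genes) were called in NV against control and 11 (11 at any fold; 4.32%) in NA10hd against NV.

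Among the alternatives run, signs turned only for estimates that were not called. In NV against control, Rpl4 was -0.00393 with TMM from other genes, -0.0318 with the replicate block, -5.34e-05 with pseudogenes summed in, -0.0753 in one sex makeup and -0.0326 to 0.0507 with a library left out. Rpl39l was 0.356 in one sex makeup, Rpl7l1 was 0.0104 with library totals and -0.121 to 0.0487 with a library left out, and Rps4y2 was -0.0431 to 0.0695. In NA10hd against NV, library totals gave -0.0112 (Rpl4), -0.00409 (Rps27l) and -0.0409 (Rpsa), the replicate block gave -0.0401 (Rpl36al) and -0.0828 (Rps27l), and left-out libraries gave -0.00217 to 0.389 (Rpl36al), -0.0242 to 0.298 (Rps27l), -0.0229 to 0.0729 (Rpsa) and -0.0191 to 0.146 (Rps2). In NA10hd against control they gave -0.272 to 0.143 (Rpl36al), -0.212 to 0.0967 (Rps27l) and -0.00860 to 0.237 (Rps4x). The log2 ratio of Rpl22l1 to Rpl22 in NA10hd against NV was -0.0302 to 0.241, and that of Rpl7l1 to Rpl7 in NA10hd against control was -0.0275 to 0.170.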
